A study of Arabidopsis thaliana with 9 samples.

Results

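The CAX and NHX genes encode exchangers of plant membranes that trade protons for metal cations, and 6 of them were followed here across 3 genotypes of Arabidopsis thaliana: CAX1 (AT2G38170), CAX2 (AT3G13320), CAX3 (AT3G51860), CAX4 (AT5G01490), NHX1 (AT5G27150) and NHX2 (AT3G05030). The 6 were taken by locus identifier, with earlier results of these data known, and all 6 are among the 20777 loci of the deposited table. RNA came from the vegetative part of Col-0 seedlings at growth stage 1.03, raised in a day of 16 h of light and 8 h of dark on MS medium kept at 22 °C. It was hybridised to 9 Affymetrix ATH1 arrays, 3 biological repeats for each genotype. The first line is labelled 35S::AVP1, a construct in which the strong, broadly active 35S promoter of a plant virus drives AVP1. The second line carries extra BRI1, with the genotype given as pBRI1::BRI1 and the source name as 35S::BRI1, so that its promoter is unsettled, and it is called the BRI1 line. The third genotype is wild type without a construct. The sources used here do not say how many independent transformants stand behind each line. The design text also speaks of a line with extra GRF5, which was not analysed here.

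The plant vacuole is kept acidic by 2 kinds of proton pump, the pyrophosphatase AVP1 and the V-ATPase. CAX proteins spend the proton gradient to load calcium, and in some cases manganese or other metals, into the vacuole. NHX1 and NHX2 do the same for potassium and sodium, and through the uptake of potassium they take part in turgor, cell expansion and stomatal movement. BRI1, the receptor of brassinosteroid hormones, promotes leaf growth. The question here is whether transcripts of the exchangers differ in lines meant to hold more of the pump or more of the receptor.

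Levels are log2 values from RMA, a method that corrects background, equalises the arrays and summarises the probes of a gene, so that a difference of 1 is 2-fold. Array medians lay between 6.34 and 6.42, and the 10th percentile of the arrays between 3.71 and 3.79, below every level of the 6 exchangers. Across loci, the 35S::AVP1-labelled arrays correlated with those of other genotypes at 0.980 to 0.987, and the BRI1 line with wild type at 0.990 to 0.997. BRI1 rose in the BRI1 line by 2.73 (SE 0.08, limma adjusted p = 7.75e-08), to 12.28 ± 0.09 against 9.55 ± 0.03 in wild type (SD, n = 3). AVP1 was at 12.54 ± 0.04 in the 35S::AVP1-labelled arrays and at 12.63 ± 0.07 in wild type (SD, n = 3), a change of -0.09 (95% interval -0.25 to 0.07, limma adjusted p = 0.489). Its levels there (12.49 to 12.57) lay just below those of wild type (12.58 to 12.71). Groups did not overlap in this comparison for 28.4% of all loci. The label is thus not borne out by the measured AVP1 level, and every direction below is for arrays that carry this label. If the probes lie outside the construct, which is not known here, this level checks nothing. Of 5 markers of green shoot tissue 2 were measured, and each averaged at least 13.70 in each genotype.

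**Figure D1:**
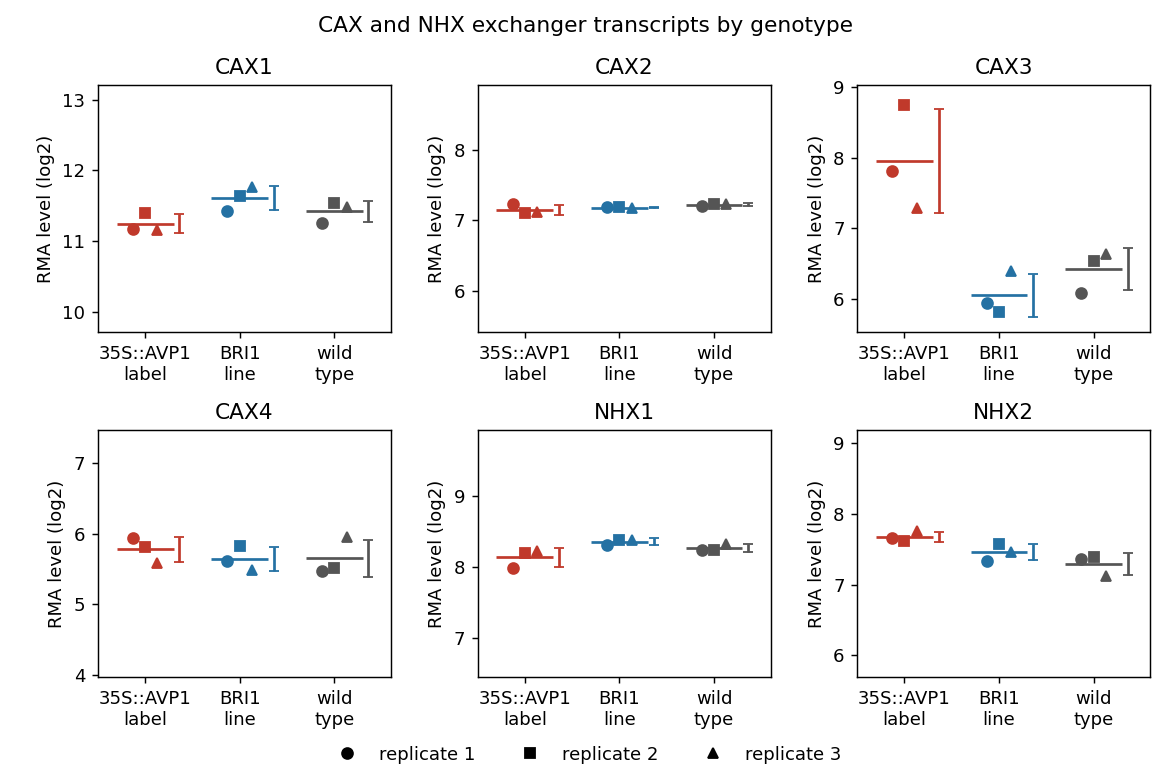
RMA level (log2, vertical axis, the same span of 3.5 in each panel) of each exchanger in the 35S::AVP1-labelled arrays, the BRI1 line and wild type. Points are single arrays, horizontal lines are means and bars are SD (n = 3); CAX3 in the 35S::AVP1-labelled arrays (7.29 to 8.74) lies above all 6 other arrays (5.81 to 6.64).

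CAX3 was the exchanger that differed most. It encodes a vacuolar calcium/proton exchanger close to CAX1, and in leaves the 2 proteins act together in calcium storage. Its level was 7.81, 8.74 and 7.29 in replicates 1, 2 and 3 labelled 35S::AVP1. In the BRI1 line it was 5.95, 5.81 and 6.40, and in wild type 6.08, 6.54 and 6.64. The 3 35S::AVP1-labelled arrays were thus the 3 highest of all 9, and replicate 2 was the highest of them. The order of the means was 35S::AVP1 label, wild type and BRI1 line, and the levels of the last pair overlap.

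Against wild type, CAX3 rose by 1.53 in the 35S::AVP1-labelled arrays (SE 0.32, 95% interval 0.82 to 2.23, limma adjusted p = 0.0119). This is a 2.88-fold rise, with an interval of 1.77-fold to 4.70-fold. By size it was number 169 among the changes of 20777 loci. The two-sided exact permutation p was 0.1, the smallest that 3 arrays against 3 allow. The spread within the line was large, with an SD of 0.74, against 0.31 in the BRI1 line and 0.30 in wild type. Without replicate 2 labelled 35S::AVP1 the rise was 1.13 (limma adjusted p = 0.0173), and CAX3 was called in each of the 9 fits that left out an array. In these whole-shoot samples, a larger share of cells with the transcript and more transcript per cell cannot be told apart.

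NHX2, which encodes a vacuolar exchanger for potassium and sodium, was the other exchanger that rose in the 35S::AVP1-labelled arrays. Its level was 7.66, 7.62 and 7.75 there, 7.34, 7.57 and 7.46 in the BRI1 line and 7.35, 7.40 and 7.12 in wild type. The 3 35S::AVP1-labelled arrays lay above the other 6, the BRI1 line took the middle of the order, and its levels overlap those of wild type. The rise over wild type was 0.39 (SE 0.09, 95% interval 0.18 to 0.59, limma adjusted p = 0.0240), or 1.31-fold, and number 2155 by size among all loci. The call was lost without replicate 1 labelled 35S::AVP1 (0.39, limma adjusted p = 0.0622). It was also lost without replicate 3 of that label (0.35, limma adjusted p = 0.0796) and without wild type replicate 3 (0.30, limma adjusted p = 0.0650). The difference between the 35S::AVP1-labelled arrays and the BRI1 line, 0.22 (95% interval 0.01 to 0.43), did not pass the threshold (limma adjusted p = 0.179).

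**Figure D2:**
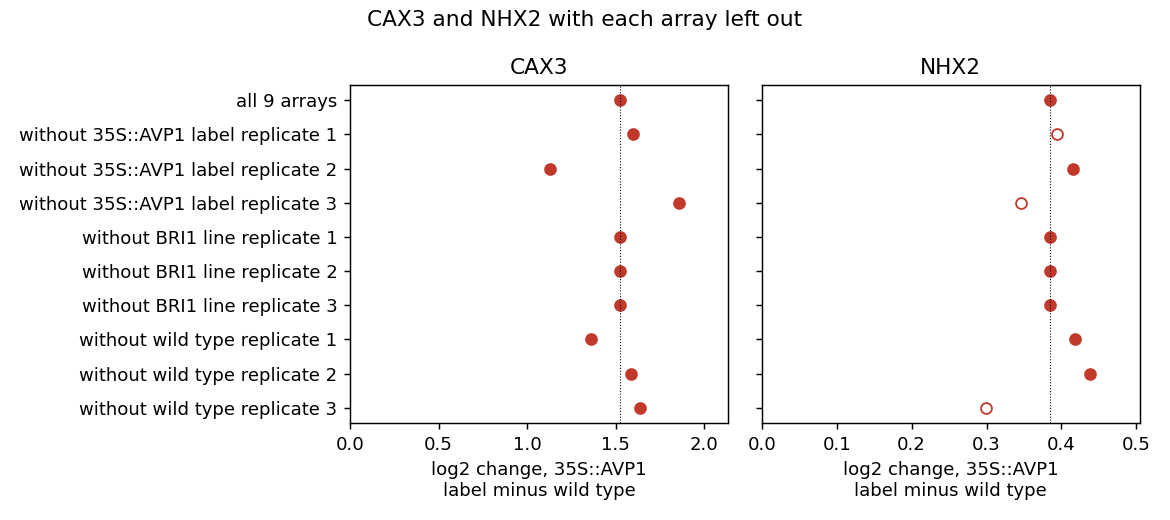
Log2 change of CAX3 (left) and NHX2 (right) in the 35S::AVP1-labelled arrays minus wild type (horizontal axes, of different length), with all 9 arrays and with each array left out (rows). Filled points have a limma adjusted p under 0.05; CAX3 runs from 1.13 to 1.85 and is filled throughout, and NHX2 runs from 0.30 to 0.44 and is open in 3 rows.

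CAX1, the calcium/proton exchanger best known from leaf mesophyll, did not follow CAX3. Its level was 11.17, 11.40 and 11.15 in the 35S::AVP1-labelled arrays, 11.42, 11.63 and 11.76 in the BRI1 line and 11.25, 11.53 and 11.47 in wild type. The BRI1 line had the highest mean and the 35S::AVP1-labelled arrays the lowest, and each overlaps wild type. The change against wild type was -0.18 in the 35S::AVP1-labelled arrays (95% interval -0.43 to 0.07, limma adjusted p = 0.376). In the BRI1 line it was 0.19 (95% interval -0.06 to 0.44, limma adjusted p = 0.957). Between the 35S::AVP1-labelled arrays and the BRI1 line, which do not overlap, the difference was -0.36 (95% interval -0.61 to -0.12) and missed the threshold (limma adjusted p = 0.0693). It passed without BRI1 line replicate 1 (-0.46, limma adjusted p = 0.0442) and without wild type replicate 1 (-0.36, limma adjusted p = 0.0475).

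CAX2, which encodes a vacuolar exchanger that also carries manganese, had the most even level. It was 7.23, 7.10 and 7.12 in the 35S::AVP1-labelled arrays, 7.19, 7.19 and 7.17 in the BRI1 line and 7.20, 7.24 and 7.23 in wild type. Wild type had the highest mean and the 35S::AVP1-labelled arrays the lowest, and these 2 groups overlap. The change against wild type was -0.07 in the 35S::AVP1-labelled arrays (95% interval -0.21 to 0.06, limma adjusted p = 0.520) and -0.04 in the BRI1 line (95% interval -0.17 to 0.10, limma adjusted p = 0.999). The BRI1 line lay below wild type without overlap, by this small amount. In the 35S::AVP1-labelled arrays the interval of the linear ratio to wild type runs from 0.864 to 1.05.

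CAX4, a less studied member of the family, varied within genotypes as much as between them. Its level was 5.94, 5.81 and 5.58 in the 35S::AVP1-labelled arrays, 5.61, 5.83 and 5.49 in the BRI1 line and 5.48, 5.52 and 5.96 in wild type. The 3 genotypes overlap throughout, and the highest level of all was that of wild type replicate 3. The change against wild type was 0.13 in the 35S::AVP1-labelled arrays (95% interval -0.19 to 0.45, limma adjusted p = 0.646). It was -0.01 in the BRI1 line (95% interval -0.33 to 0.31, limma adjusted p = 0.999).

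NHX1, the paralog of NHX2 and the NHX exchanger best known from salt tolerance, was not called in any comparison. Its level was 7.99, 8.19 and 8.23 in the 35S::AVP1-labelled arrays, 8.31, 8.39 and 8.38 in the BRI1 line and 8.24, 8.23 and 8.33 in wild type. The 35S::AVP1-labelled arrays were the 3 lowest of the 9, but the highest of them, at 8.228, lay just under the lowest wild type array, at 8.235. Replicate 1 of that label stood furthest down. The change against wild type was -0.13 there (95% interval -0.30 to 0.04, limma adjusted p = 0.343) and 0.09 in the BRI1 line (95% interval -0.08 to 0.27, limma adjusted p = 0.975). Between the 35S::AVP1-labelled arrays and the BRI1 line it was -0.22 (95% interval -0.40 to -0.05, limma adjusted p = 0.105).

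Over the 6 exchangers, 2 rose and 0 fell in the 35S::AVP1-labelled arrays against wild type, and 4 did not pass the test. Among all loci 11.1% were called in this comparison, with 6.31% of all loci higher and 4.76% lower (57.0% of the calls higher, 47.3% after median centring and 49.1% after quantile normalization). At an unadjusted p under 0.05 there were 2 of the 6, against 24.2% of all loci. The median change was 0.03 over the exchangers and 0.05 over all loci. Groups did not overlap for 3 of the 6 (CAX3, NHX1 and NHX2), against 28.4% of all loci.

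In the BRI1 line against wild type, limma called 0 of 6, and 0 had an unadjusted p under 0.05. The share called over all loci was 0.0818%, made up of 0.0385% higher and 0.0433% lower (47.1% of the calls higher, 64.7% after median centring), and the share at an unadjusted p under 0.05 was 5.30%. The exchanger with the largest value was CAX3, at -0.37 (95% interval -1.07 to 0.34, limma adjusted p = 0.979), an interval that reaches down to 0.475 of the wild type level. The value of NHX2 was 0.17 (95% interval -0.04 to 0.37, limma adjusted p = 0.956). CAX2 was the 1 exchanger without overlap, against 10.1% of all loci.

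The lines were then compared with each other, which tests whether their values against the shared wild type arrays differ. CAX3 was higher in the 35S::AVP1-labelled arrays than in the BRI1 line by 1.90 (SE 0.32, 95% interval 1.19 to 2.60, 3.72-fold, limma adjusted p = 0.00379). It was the 1 of 6 called, against 10.3% of all loci (6.27% higher and 4.05% lower; 60.8% of the calls were higher, 43.6% after median centring). At an unadjusted p under 0.05 there were 4 of 6, against 23.9% of all loci. Without BRI1 line replicate 3 the count over all loci was 1298 in place of 2144. Groups did not overlap for CAX1, CAX3, NHX1 and NHX2, against 30.3% of all loci. CAX2 and CAX4 differed by -0.04 (95% interval -0.17 to 0.10) and 0.14 (95% interval -0.18 to 0.46).

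**Figure D3:**
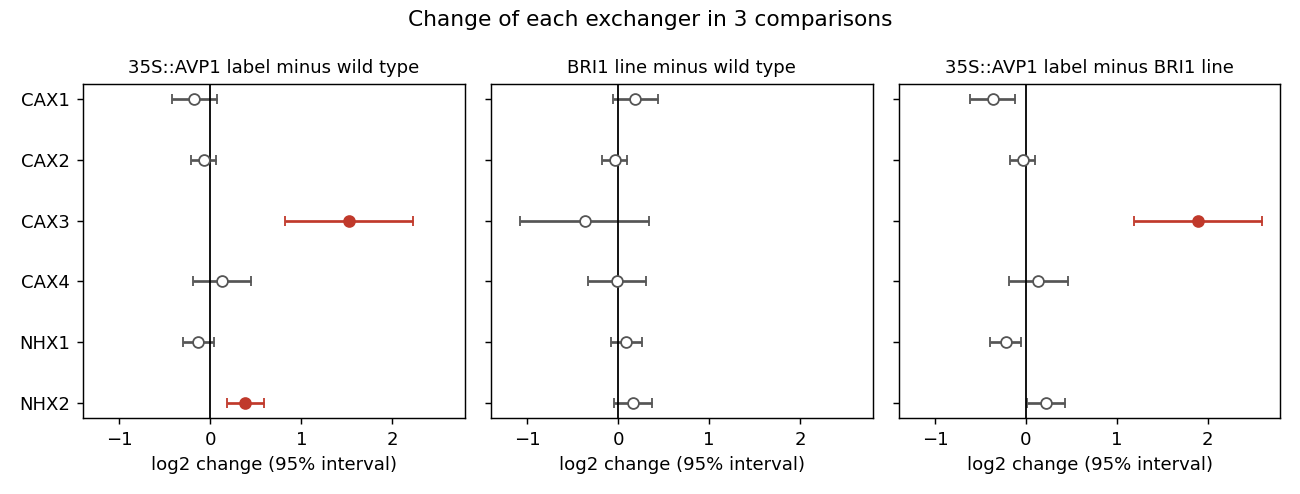
Log2 change with its 95% interval (horizontal axis, limma) of each exchanger (rows) in 3 comparisons. Filled points have an adjusted p under 0.05: CAX3 (1.53) and NHX2 (0.39) in the left panel, none in the middle panel and CAX3 (1.90) in the right panel.

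The paralogs were also set against each other within each array, where the absolute difference has no meaning because probes differ, but its change between genotypes shows unequal change. CAX3 minus CAX1 was -3.37, -2.65 and -3.86 in the 35S::AVP1-labelled arrays, -5.48, -5.82 and -5.36 in the BRI1 line and -5.17, -4.99 and -4.83 in wild type. The 3 genotypes did not overlap. The change against wild type was 1.70 in the 35S::AVP1-labelled arrays and -0.56 in the BRI1 line (two-sided exact permutation p = 0.1 each, the smallest possible, n = 3). NHX2 minus NHX1 was -0.33, -0.58 and -0.47 in the 35S::AVP1-labelled arrays, -0.97, -0.82 and -0.92 in the BRI1 line and -0.88, -0.84 and -1.21 in wild type. The 35S::AVP1-labelled arrays stood above all others, and the BRI1 line overlapped wild type. The change against wild type was 0.52 in the 35S::AVP1-labelled arrays (exact permutation p = 0.1) and 0.07 in the BRI1 line (exact permutation p = 0.8). This comparison was chosen after the values were seen. Whether probes of one paralog also bind the other's transcript was not tested.

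**Figure D4:**
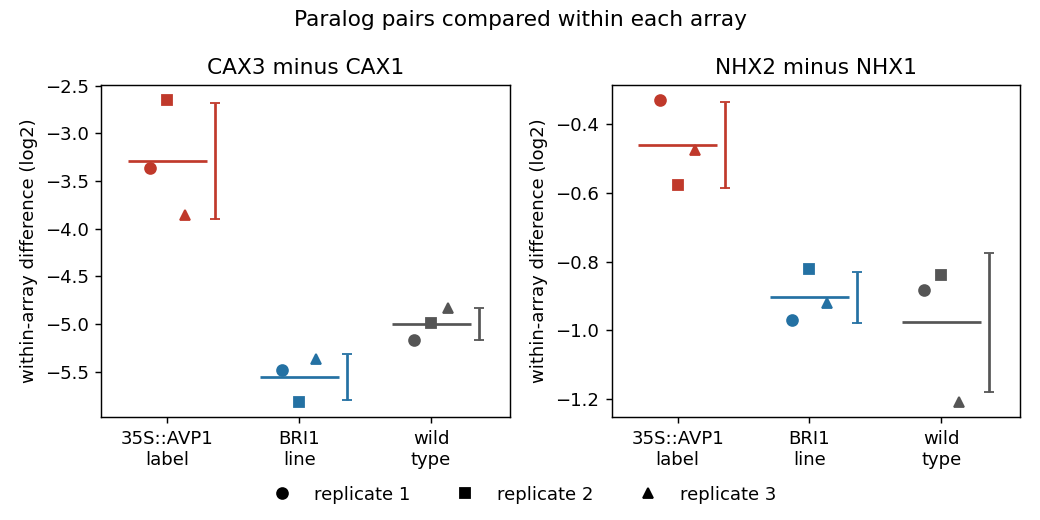
Within-array difference of log2 level (vertical axes, of different span) for CAX3 minus CAX1 and NHX2 minus NHX1. Points are arrays, lines are means and bars are SD (n = 3); the 35S::AVP1-labelled arrays average -3.29 and -0.46, against -5.00 and -0.98 in wild type.

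The other cation/proton exchangers on a list of 22 were looked at for the same genotypes, and 20 were measured; the close relatives CAX5 and CAX6 are not among the measured loci. In the 35S::AVP1-labelled arrays 1 rose and 1 fell against wild type, near the 6.31% and 4.76% of all loci, with a median change of 0.09 against 0.05 over all loci. Of the 20, 4 had an unadjusted p under 0.05, against 24.2% of all loci. Against the BRI1 line 1 was higher and 1 lower, with 6.27% and 4.05% of all loci. There 8 of 20 had an unadjusted p under 0.05, against 23.9% of all loci. MHX, a vacuolar exchanger of magnesium and zinc, was at 8.50, 8.48 and 8.56 in the 35S::AVP1-labelled arrays, against 8.11, 8.15 and 8.19 in wild type. It rose by 0.36 (limma adjusted p = 0.00351) and was 0.36 higher than in the BRI1 line (limma adjusted p = 0.00383). CHX20, a potassium exchanger of inner membranes known from guard cells, was at 6.31, 6.24 and 6.32 in the 35S::AVP1-labelled arrays, against 6.99, 7.00 and 7.03 in wild type. It fell by 0.72 (limma adjusted p = 0.000105) and was also lower than in the BRI1 line, with a log2 difference of -0.71 (limma adjusted p = 0.000116). For both genes the 35S::AVP1-labelled arrays did not overlap either of the other genotypes. The sodium exchanger gene SOS1 of the plasma membrane changed by 0.07 (limma adjusted p = 0.773), and the endosomal NHX5 and NHX6 by 0.16 and 0.22 (limma adjusted p = 0.266 and 0.105). In the BRI1 line against wild type 0 of 20 were called and 1 had an unadjusted p under 0.05, against 0.0818% and 5.30% of all loci, and values ran from -0.18 to 0.27.

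Of 25 listed genes of AVP1 and the V-ATPase 19 were measured, and limma called 0 in each of the 3 comparisons, with 3, 1 and 3 at an unadjusted p under 0.05. Over all loci 11.1%, 0.0818% and 10.3% were called, and 24.2%, 5.30% and 23.9% had an unadjusted p under 0.05, so that these counts do not stand above the background. The order is the 35S::AVP1-labelled arrays against wild type, the BRI1 line against wild type and the 35S::AVP1-labelled arrays against the BRI1 line. In the first comparison values ran from -0.27 for VHA-c5, a subunit of the membrane ring of the V-ATPase, to 0.26 for the peripheral subunit VHA-E3. The levels of VHA-E3 overlapped wild type there. In the BRI1 line its value against wild type was 0.35, without overlap (limma adjusted p = 0.824). Of 3 other calcium transporters of the vacuole, the calcium pumps ACA4 and ACA11 and the channel TPC1, 0 were called in the same 3 comparisons, and 0 had an unadjusted p under 0.05, which against those shares says little for 3 genes. Their changes in the 35S::AVP1-labelled arrays were 0.00, 0.10 and 0.12.

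Among 7 genes for proteins known to act on cation/proton exchangers or at the vacuole membrane, CBL4 rose in the 35S::AVP1-labelled arrays, 1 of 7 called against 11.1% of all loci. At an unadjusted p under 0.05 there were 4 of 7, against 24.2%. Against the BRI1 line 3 of 7 were called, with 10.3% of all loci, and 4 of 7 had an unadjusted p under 0.05, with 23.9%. CBL4, also called SOS3, is a calcium sensor best known for switching on SOS1 through the kinase CIPK24 (SOS2), a kinase that also acts on CAX1 and on vacuolar sodium exchange. CBL4 was at 5.89, 6.14 and 5.80 in the 35S::AVP1-labelled arrays, against 5.08, 5.51 and 5.34 in wild type, a rise of 0.63 (SE 0.12, limma adjusted p = 0.00759). It was 0.63 higher than in the BRI1 line as well (limma adjusted p = 0.00792). CIPK24 and the vacuolar sensor gene CBL10 had changes of 0.36 and 0.35 against wild type (limma adjusted p = 0.0545 and 0.0543). Both were higher than in the BRI1 line, by 0.43 and 0.41 (limma adjusted p = 0.0271 and 0.0272). The call of CIPK24 was lost without each of replicates 2 and 3 labelled 35S::AVP1 and each of the 3 BRI1 line arrays (adjusted p up to 0.0986). That of CBL10 was lost without replicates 1 and 2 labelled 35S::AVP1 and each of the 3 BRI1 line arrays (adjusted p up to 0.0996), and after median centring (0.36, adjusted p = 0.0557). GRXS14, a glutaredoxin found as an activator of CAX1 in yeast, was at -0.39 against wild type (limma adjusted p = 0.0652). In the BRI1 line against wild type 0 of 7 were called and 0 had an unadjusted p under 0.05, against 0.0818% and 5.30% of all loci.

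**Figure D5:**
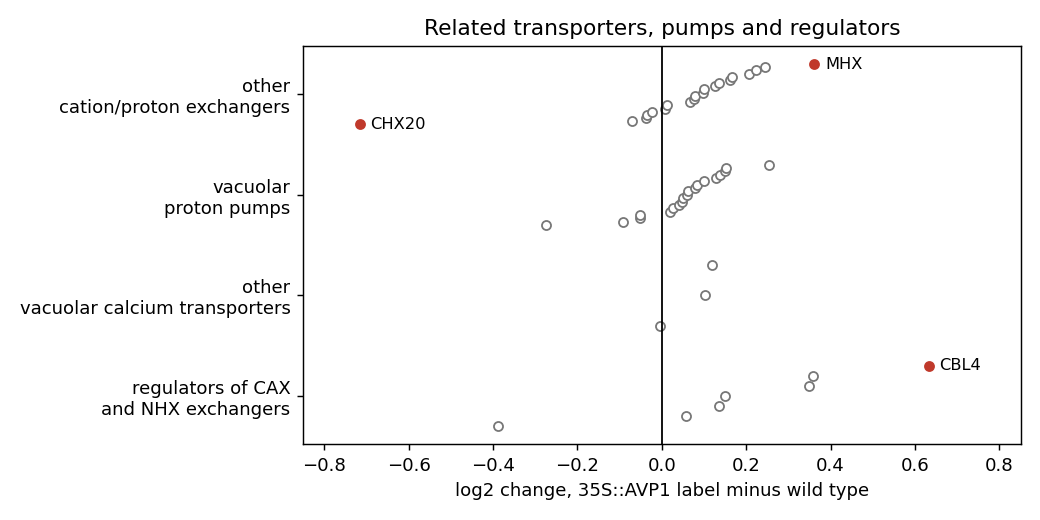
Log2 change in the 35S::AVP1-labelled arrays minus wild type (horizontal axis) for 49 related genes, by list; vertical position within a list is only the order by size. Filled points have a limma adjusted p under 0.05: CHX20 (-0.72), MHX (0.36) and CBL4 (0.63).

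Some markers of other organs were also higher in the 35S::AVP1-labelled arrays than in wild type. Of 6 measured root markers PYK10 (0.86) and PHO1 (0.81) rose against wild type and 0 fell, against 6.31% and 4.76% of all loci. RHD6 (0.10), EXPA7 (0.17), COBL9 (0.17) and SHR (-0.08) were not called there. For the BRI1 line against wild type limma called 0 of the 6, against 0.0818% of all loci. In that comparison 1 had an unadjusted p under 0.05, against 5.30%. It was PYK10, at 0.68 and without overlap (limma adjusted p = 0.0902). Between the 35S::AVP1-labelled arrays and the BRI1 line 0 of the 6 were called, against 10.3% of all loci. PYK10 differed there by 0.18 (limma adjusted p = 0.368) and PHO1 by 0.55 (limma adjusted p = 0.0937). The linear levels of the 6 were also summed in each array, a sum that is mostly PYK10. The log2 of this sum ran from 11.87 to 11.90 in the 35S::AVP1-labelled arrays. It ran from 11.48 to 11.94 in the BRI1 line and from 10.99 to 11.19 in wild type. Of 5 floral markers SEP3 (1.80) and AG (0.57) rose and 0 fell, against the same shares of all loci. AG averaged 3.39 in wild type, below the 10th percentile of the arrays. AP1 (0.06), PI (0.05) and AP3 (0.28) were not called. Against the BRI1 line 2 of the 5 were called, both higher, with 10.3% of all loci called. They were SEP3 (2.27, limma adjusted p = 4.06e-06) and AG (0.57, limma adjusted p = 0.00499). In the BRI1 line against wild type 0 of the 5 were called, against 0.0818% of all loci. SEP3 was at -0.47 there, without overlap (limma adjusted p = 0.636), the 1 with an unadjusted p under 0.05, against 5.30%. The log2 of the summed linear levels of the 5 floral markers ran from 7.10 to 7.49 in the 35S::AVP1-labelled arrays. It ran from 6.19 to 6.30 in the BRI1 line and from 6.32 to 6.42 in wild type. The mean level lay below the 10th percentile of the arrays for 0 floral markers in the 35S::AVP1-labelled arrays, 2 in the BRI1 line and 1 in wild type, and for 0 root markers in each genotype. The part of other organs in the CAX3 and NHX2 results was not tested.

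The loci most like CAX3 were sought by Pearson correlation of log2 level over the 9 arrays, which share genotype and hybridisation, and the values are a description. The 5 highest were AT1G64300 (0.986), IRE1A (0.979), AT5G24260 (0.978), AT1G18470 (0.977) and AT1G33270 (0.971). IRE1A encodes a sensor of unfolded proteins in the endoplasmic reticulum, and it rose by 0.47 in the 35S::AVP1-labelled arrays (limma adjusted p = 0.0111). AT1G64300 rose by 0.66 (limma adjusted p = 0.00758), and the other 3 had changes of 0.12 to 0.26 that were not called. Of all loci, 232 correlated with CAX3 above 0.9. Deviations from the genotype means correlated at 0.865 to 0.982 between CAX3 and these 5, which were chosen for their correlation over the same arrays.

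For NHX2 the 5 highest were AT3G45090 (0.995), AT1G19960 (0.972), AT2G32430 (0.965), AT1G67350 (0.955) and AT3G09540 (0.942), and 39 loci were above 0.9. Of these, AT1G19960 had the largest rise in the 35S::AVP1-labelled arrays, by 1.18 (limma adjusted p = 0.00440). AT3G45090, the locus most like NHX2, rose by 0.55 (limma adjusted p = 0.0236). AT3G09540 rose by 0.62 (limma adjusted p = 0.00557) and AT2G32430 by 0.31 (limma adjusted p = 0.0429), while AT1G67350 (0.17) was not called. Deviations from the genotype means correlated at 0.781 to 0.988 between NHX2 and these 5, which were also chosen for their correlation over the same arrays. No locus was among the 5 for both CAX3 and NHX2.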

How the data were processed

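RNA levels were measured on 9 Affymetrix ATH1 arrays. The deposited log2 values were made by the authors with RMA, per the submitters' processing notes. The RMA version, how probes were assigned to loci and which arrays were normalized as 1 set are not stated in the sources used here. The table has 1 value per locus and array, no detection calls and 0 columns outside the 9 samples; the number of arrays limits the precision.

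With limma 3.58.1 (R 4.3.3), lmFit and eBayes estimated 1 mean per genotype for each of the 20777 loci from the 9 arrays; residual degrees of freedom were 6 and prior ones 3.94. The p-values of each of 3 contrasts were corrected across all loci (Benjamini-Hochberg), and loci under 0.05 were called. Exact permutation tests were two-sided.

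The exchangers and gene lists were chosen with earlier results of these data known. Named were the 6 exchangers, list members called in any comparison, the measured root and floral markers and the genes of the labels. The 5 loci most correlated with each called exchanger were named as well. Others were chosen for their role or rank after their values were seen. These were SOS1, NHX5, NHX6, VHA-c5, VHA-E3, ACA4, ACA11, TPC1, GRXS14, and CIPK24 and CBL10 against wild type. Names follow the lists or the RefSeq table of TAIR10.1, which holds 20508 of the loci and all 6 exchangers.

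Replicate numbers were not used as pairs in the main fit, because the labels name no shared batch. Deviations correlated at 0.02 to 0.48 in 9 same-numbered pairs, all positive and above 0.1 in 5. Different-numbered pairs were not compared, so whether same-numbered arrays share an effect was not tested. With the replicate number as a block, 2602 loci were called in the AVP1-labelled arrays against wild type (main fit 2300). In the BRI1 line against wild type 23 were called (main fit 17), and between the lines 2382 (main fit 2144). Alternatives were quantile normalization, median centring, removal of loci with a mean under 5, a fit on the 2 groups compared, an intensity trend, a replicate block and leaving out each array.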

Additional observations from a re-analysis of the deposited data

Results flagged for a closer look

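CAX3 differed between the lines by the test of the difference itself: it was 1.9 higher on the log2 scale in the 35S::AVP1-labelled arrays than in the BRI1 line (limma adjusted p = 0.00379). Against the same wild type arrays its values were 1.53 and -0.37, and the level was higher in 3 of 3 35S::AVP1-labelled arrays than in each array of the BRI1 line. Leaving out single arrays gave 1.50 to 2.22.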

How the results depend on the processing

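CAX3 kept its direction and its call in the 35S::AVP1-labelled arrays under all 15 alternatives, against wild type (1.13 to 1.85, adjusted p up to 0.0393) and against the BRI1 line (1.50 to 2.22, adjusted p up to 0.0191). NHX2 against wild type ran from 0.30 to 0.44 when single arrays were left out, and lost its call in 3 of those 9 fits; the other 6 alternatives gave 0.35 to 0.39, all called. The count of exchangers called there was then 1 to 2. CAX1 in the 35S::AVP1-labelled arrays against the BRI1 line was -0.46 to -0.29 without single arrays. With the replicate number as a block it was -0.36 and called (adjusted p = 0.0285), which made 2 exchangers called in place of 1; without single arrays that count was 1 to 2. The block changed no other call of an exchanger. In the BRI1 line against wild type 0 exchangers were called under each alternative, and CAX4 there ran from -0.10 to 0.14 and changed sign in 5 of 15. Over all loci that comparison had 17 calls, 7 in a fit of the 2 groups alone and 3 to 10 without single arrays. For the 35S::AVP1-labelled arrays against the BRI1 line the count without single arrays was 1298 to 2419. The cause was not tested. The number of arrays, 3 a genotype, limits what can be called.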

Other observations

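The measured loci next to the called exchangers in chromosome order were looked at after the values were seen. Beside CAX3 the changes in the 35S::AVP1-labelled arrays against wild type were -0.13 for ACX4, 0.06 for CPK13, 0.22 for AT3G51870 and -0.40 for HMGB1 (limma adjusted p = 0.0912 or higher). Beside NHX2, HST rose by 0.33 (limma adjusted p = 0.0182), while ACP1 (-0.09), Cand2 (-0.09) and AT3G05050 (0.14) were not called. Over all loci 11.1% were called in this comparison, so that 1 call among these few neighbours says little.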
